A study of Sus scrofa with 30 samples.

Results

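The circadian clock genes described here are 10 genes of the sow mammary gland, namely ARNTL, CLOCK, PER1, PER2, PER3, CRY1, CRY2, NR1D1, NR1D2 and DBP. They were chosen by name, and every transcript in the deposited table that the Sscrofa11.1 RefSeq annotation assigns to one of them was taken and summed per gene. The 10 genes are among 26012 annotated genes and assembled loci in the table, and they hold 31 of its 61773 transcripts.

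The study followed the mammary gland of multiparous, half-sibling Danish Landrace × Yorkshire sows through 5 stages, with bulk RNA sequencing of parenchyma cut below the teat of 1 gland per sow after slaughter. The stages were mid-gestation (MG, day 70 of gestation), late gestation (LG, day 110 of gestation), early lactation (EL, day 2 postpartum), peak lactation (PL, day 10 postpartum) and day 2 after weaning (W2), with 6 sows each. No treatment is given for any sow. The study also lists the age, body weight and body measures of the sows, whose ages and weights differ somewhat between stages, so that their part and that of the stage cannot be told apart. The sample titles and the stage names in the sample records conflict for MG and EL, and the titles were followed. In the counted samples described below, 6 milk protein genes held 6.39% to 12.1% of all units under the EL titles and 1.19% to 2.95% under the MG titles. The contrast of PL with the other 4 stages and that of W2 with PL are the same under either reading. The time of day at which the sows were sampled is not given in the sources used here.

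Only 3 samples of each stage were counted as replicates, 15 in all. The other 3 samples of a stage differed from each other by a median of at most 1.85%, against 19.6% to 59.8% between counted samples, and their mean lay within a median of 0.741% of the mean of the counted samples. The counted samples were MG 1, 3 and 6, LG 1, 3 and 4, EL 3, 4 and 6, PL 2, 3 and 6, and W2 2, 3 and 6, and the values of a stage are given in that order below. The authors call the values FPKM, but each sample sums to between 997480 and 1002643 as TPM values do, so they are called units. They are scaled by transcript length and by the total of the sample. Reads per transcript are not in this table, and a count matrix that the study places elsewhere was not used here, so no counting error is given. PL sample 2 stood apart, with 65.3% of its units in its 20 highest genes, against 26.6% to 47.3% in the other counted samples.

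The mammalian clock is a feedback loop of transcription. ARNTL (also called BMAL1) pairs with CLOCK to switch on the PER and CRY genes, whose proteins then return to the nucleus and block the pair, while NR1D1 and NR1D2 (REV-ERB alpha and beta) repress ARNTL and compete with the ROR receptors that activate it. DBP, TEF and HLF are activators driven by the loop that bind D-box elements, where NFIL3 acts as a repressor, and in the mammary gland of other mammals the clock has been linked to the onset and daily rhythm of milk synthesis.

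PL was the stage that differed most from the others, for the clock genes as for all genes and loci. ARNTL was higher in PL than in the mean of the other 4 stages, whereas PER3, CRY2, NR1D2 and DBP were lower. None of these was called in PL against EL alone. After weaning PER3, CRY2, NR1D2 and DBP were all higher again. The PL calls of ARNTL, CRY2 and NR1D2 were lost without PL sample 2, and that of CRY2 also after a second scaling described below, while those of PER3 and DBP held in both settings. Of the factors that bind the same sites as DBP, the repressor NFIL3 was higher in PL and the activator TEF was lower, while the activator HLF was not called. Over the 5 stages together, 4 of the 10 genes differed at an adjusted p below 0.05 (limma moderated F test with Benjamini-Hochberg adjustment over all 26012 genes and loci), and 18.3% of all genes and loci did. These were PER3 (adjusted p = 0.0026), DBP (0.0044), CRY1 (0.019) and CRY2 (0.025). ARNTL (0.076) and NR1D2 (0.063) did not pass this F test.

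**Figure D1:**
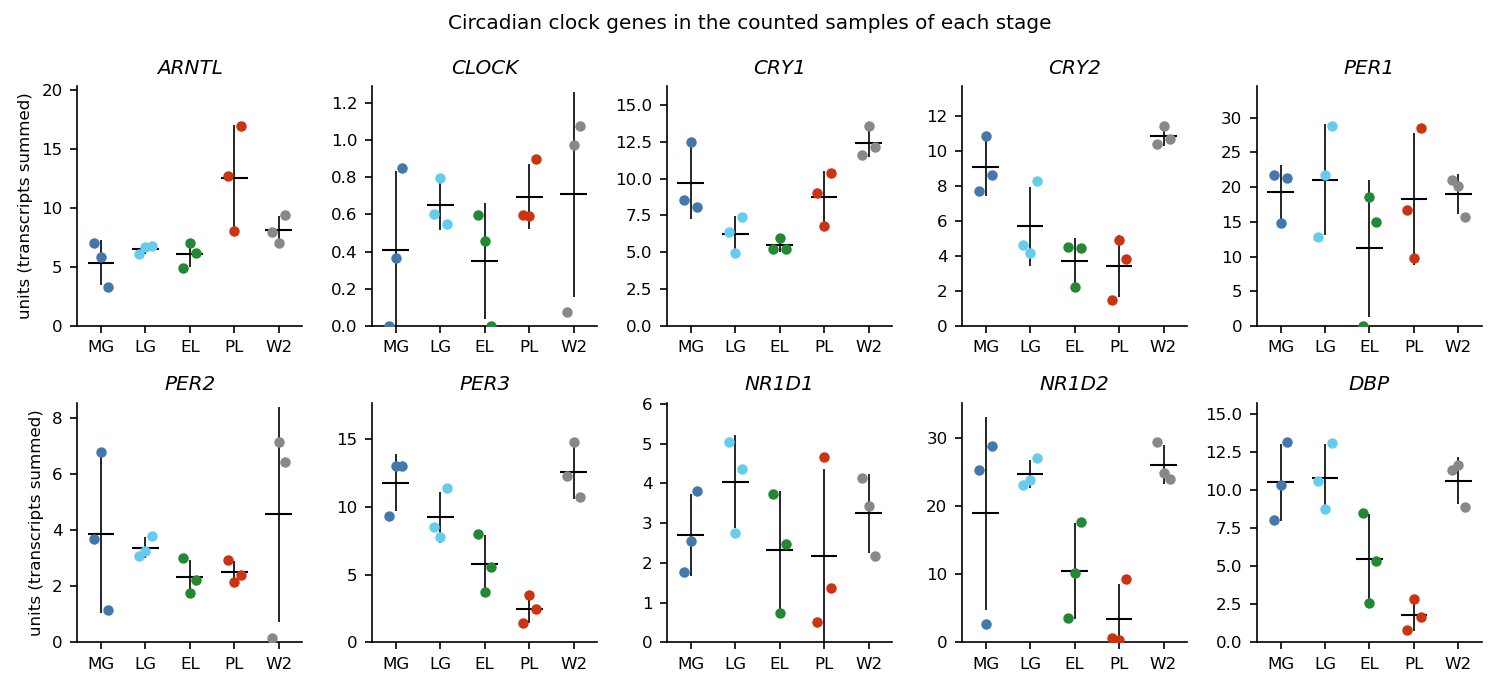
Units of each clock gene, summed over its reference transcripts, in the 3 counted samples of each stage (points). Horizontal lines are stage means and vertical lines 1 SD, cut at 0. The 3 PL samples of PER3 (1.45 to 3.52 units) lie below all other samples, and those of ARNTL (8.03 to 16.9 units) lie above all but 1 of the others.

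Among the 10 genes the level per unit of length was highest for PER1 (mean over the 15 samples 17.8 units) and NR1D2 (16.8 units). CRY1 (8.51 units), PER3 (8.38 units), DBP (7.85 units), ARNTL (7.71 units) and CRY2 (6.56 units) followed, with means that differ by less than the SD within several stages. PER2 (3.33 units), NR1D1 (2.90 units) and CLOCK (0.562 units) were the lowest. These levels cover the reference transcripts alone. The table lists 31 of the 64 RefSeq transcripts of the 10 genes, from 1 of 18 for CLOCK to all 5 for PER1, and transcripts that the authors assembled without a reference name could not be assigned to a gene.

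In PL against the mean of the other 4 stages, 5 of the 10 genes were called (limma, adjusted p below 0.05), where 30.3% of all genes and loci were. One gene was higher, where 3.03% of all were called higher, and 4 genes were lower, where 27.3% of all were called lower. Without PL sample 2 the calls were 2, PER3 and DBP, and the share of all genes and loci called without that sample is not given. The median log2 fold change was -0.41 over the 10 genes and -0.47 over all genes and loci. A second scaling, by the median ratio of 3521 genes with at least 10 units in every sample, brought the median of all genes to -0.07 and that of the clock genes to 0.03. Under this scaling 7.41% of all genes and loci were called higher in PL and 8.96% lower, and a clock gene is described below with both values wherever the call differs. In PL, 9.12% to 28.5% of all units lay in 6 milk protein genes (CSN1S1, CSN1S2, CSN2, CSN3, LALBA and WAP), against 0.578% to 12.1% in the samples of the other stages. The part of the milk protein share in the changes of the clock genes was not tested.

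ARNTL (chromosome 2, 45895637 to 46025174) is the activator on which the whole loop depends. It stood at 7.01, 5.79 and 3.29 units in MG, at 6.07, 6.64 and 6.79 units in LG, and at 4.94, 7.01 and 6.19 units in EL. In PL it reached 12.7, 8.03 and 16.9 units, and in W2 it was 7.93, 6.98 and 9.42 units. PL samples 2 and 6 exceeded all 12 samples of the other stages, while PL sample 3 was below W2 sample 6. On the log2(units + 0.5) scale ARNTL was 0.87 ± 0.24 (SE) higher in PL than in the other 4 stages (limma adjusted p = 0.015), which is 1.83-fold. Scaling by the median ratio gave a log2 difference of 1.41 (adjusted p = 0.0031). Without PL sample 6 the difference was 0.63 (adjusted p = 0.080), and without PL sample 2 the adjusted p was 0.055. After weaning ARNTL was lower by 0.55 than in PL, a difference that did not pass the test with the deposited values (limma adjusted p = 0.17) and did so after median ratio scaling (-1.26, adjusted p = 0.025) or without PL sample 3 (-0.83, adjusted p = 0.045).

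CLOCK, the DNA-binding partner of ARNTL, was near the lower end of the table. Its values were 0, 0.368 and 0.853 units in MG, 0.604, 0.798 and 0.546 units in LG and 0.596, 0.456 and 0 units in EL. It stood at 0.599, 0.589 and 0.899 units in PL and at 0.0754, 0.975 and 1.08 units in W2. The stages overlapped throughout, and the 95% interval of the log2 difference between PL and the other stages ran from -0.49 to 1.10. The zeros of MG sample 1 and EL sample 6 are listed values of the single CLOCK transcript in the table. NPAS2, a paralog that can take the place of CLOCK, ranged from 0.759 to 6.10 units in PL and from 0.854 to 4.75 units elsewhere, with a log2 difference of 0.18 (interval -0.87 to 1.22).

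The PER genes encode the subunits of the repressor complex that set its daily accumulation, and their 3 members behaved differently in the samples. PER3 (chromosome 6, 68487634 to 68548718) was 9.36, 13.0 and 13.1 units in MG, 8.52, 7.82 and 11.4 units in LG and 8.04, 3.75 and 5.55 units in EL. It was 1.45, 3.52 and 2.48 units in PL and 12.3, 14.8 and 10.8 units in W2. All 3 PL samples lay below all 12 others, as they did for 11.3% of all genes and loci. PER3 was 1.78 ± 0.25 (SE) lower in PL on the log2 scale (limma adjusted p = 0.00035), or 3.43-fold, and median ratio scaling gave -1.30 (adjusted p = 0.00064).

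PER1 spread widely within stages. It was 21.8, 14.9 and 21.2 units in MG, 12.8, 21.7 and 28.8 units in LG, 16.8, 9.72 and 28.5 units in PL, and 21.0, 20.2 and 15.7 units in W2. In EL it was listed at 0 in sample 3, in all 5 of its transcripts, beside 18.6 and 15.0 units in samples 4 and 6. Apart from that value the stages overlapped, and the log2 difference of PL from the other stages was 0.28 with an interval from -1.49 to 2.05.

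PER2 was 3.68, 6.80 and 1.15 units in MG, 3.07, 3.26 and 3.80 units in LG and 2.99, 1.78 and 2.23 units in EL. It was 2.95, 2.15 and 2.39 units in PL and 0.150, 7.12 and 6.42 units in W2. The 3 PL samples lay inside the ranges of MG, EL and W2 and below all LG samples. The log2 difference of PL from the other stages was -0.18 (interval -1.52 to 1.16), and 0.30 after median ratio scaling.

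The cryptochromes are the partners of the PER proteins and the strongest repressors of the ARNTL and CLOCK pair. CRY1 was 8.51, 12.5 and 8.06 units in MG, 6.38, 4.96 and 7.36 units in LG and 5.25, 6.00 and 5.19 units in EL. It was 9.00, 6.79 and 10.4 units in PL and 11.6, 13.6 and 12.1 units in W2. W2 stood above LG, EL and PL in every sample and overlapped only with MG sample 3. In W2 against the other 4 stages CRY1 was the 1 clock gene called (log2 difference 0.74 ± 0.18, limma adjusted p = 0.049), where 2.68% of all genes and loci were. That call did not hold after median ratio scaling (0.38, adjusted p = 0.42), and it was lost in 16 of 26 alternative settings, among them leaving out MG sample 1 or 6, LG sample 1 or 3, EL sample 4 or 6, or any W2 sample (adjusted p = 0.088, 0.19 and 0.18 for W2 samples 2, 3 and 6). In PL, CRY1 differed from the other stages by 0.10 with the deposited values (adjusted p = 0.70) and by 0.64 after median ratio scaling (adjusted p = 0.036).

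CRY2 (chromosome 2, 16587101 to 16620380) was 7.71, 10.9 and 8.67 units in MG, 4.61, 4.19 and 8.29 units in LG and 4.49, 2.25 and 4.48 units in EL. It was 1.46, 4.93 and 3.84 units in PL and 10.4, 11.4 and 10.7 units in W2. MG and W2 were the high stages, and EL and PL overlapped. CRY2 was 1.00 ± 0.30 (SE) lower in PL than in the other 4 stages (limma adjusted p = 0.026). The difference was -0.51 after median ratio scaling (adjusted p = 0.17) and -0.56 without PL sample 2 (adjusted p = 0.17), so this call rested on the scaling and on that sample.

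NR1D1 and NR1D2 are nuclear receptors that bind haem and repress ARNTL. NR1D2 (chromosome 13, 10756954 to 10791219) was 25.4, 2.74 and 28.8 units in MG, 23.2, 23.9 and 27.1 units in LG and 3.64, 10.2 and 17.8 units in EL. It was 0.711, 0.287 and 9.36 units in PL and 29.4, 25.0 and 24.0 units in W2. PL samples 2 and 3 were the lowest of the 15, while PL sample 6 exceeded MG sample 3 and EL sample 3. On the log2 scale NR1D2 was 3.01 ± 0.75 (SE) lower in PL (limma adjusted p = 0.010), or 8.07-fold, and 2.61 lower after median ratio scaling, where the adjusted p was 0.039. The adjusted p was 0.065 without PL sample 2 and 0.060 without PL sample 3, where the difference was -2.30.

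NR1D1 was 1.76, 2.55 and 3.82 units in MG, 5.03, 2.74 and 4.37 units in LG and 3.73, 0.738 and 2.48 units in EL. It was 0.514, 4.65 and 1.37 units in PL and 4.14, 3.43 and 2.17 units in W2. The PL samples included both the lowest and the next to highest of the 15 values. The log2 difference of PL was -0.65 (interval -1.63 to 0.34), and without PL sample 3 it was -1.28 (limma adjusted p = 0.046). RORA, a nuclear receptor that activates ARNTL through the sites NR1D1 and NR1D2 repress, overlapped between PL (1.40 to 1.87 units) and the other stages (1.37 to 4.61 units). Its log2 difference was -0.29 (interval -0.91 to 0.33), and 0.17 after median ratio scaling.

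DBP (chromosome 6, 53986955 to 53993044) is a direct target of the ARNTL and CLOCK pair and carries the rhythm to output genes. It was 8.04, 10.4 and 13.1 units in MG, 10.6, 8.78 and 13.1 units in LG and 8.52, 2.60 and 5.34 units in EL. It was 0.806, 2.85 and 1.65 units in PL and 11.4, 11.7 and 8.88 units in W2. The PL samples were the lowest but for EL sample 4, which lay just below PL sample 3. DBP was 2.13 ± 0.32 (SE) lower in PL (limma adjusted p = 0.00051), or 4.38-fold, and median ratio scaling gave -1.69 (adjusted p = 0.0012). The call of DBP was kept in all 26 alternative settings tried, each sample left out in turn included, and that of PER3 in 25 of the 26. PER3 did not reach the added limit of 2 on the absolute log2 fold change.

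**Figure D2:**
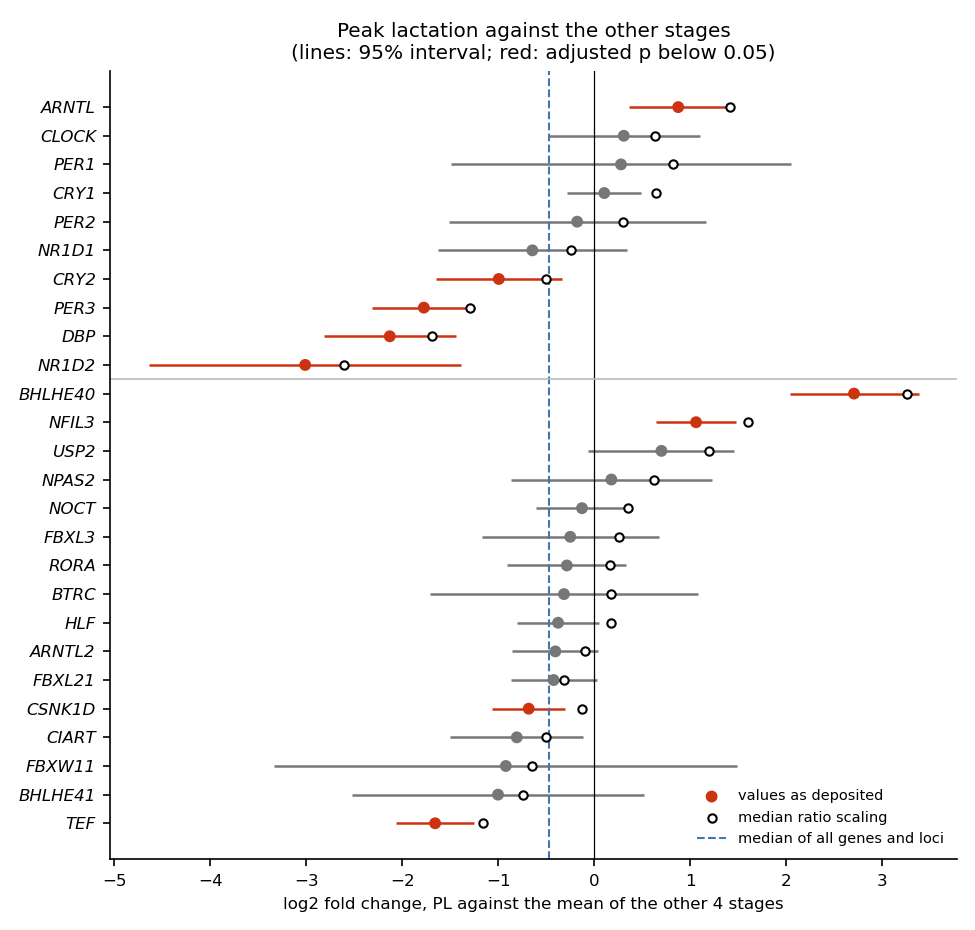
Log2 fold change of PL against the mean of the other 4 stages for the 10 clock genes (above the grey line) and 16 other clock-linked genes. Filled points are the deposited values with 95% intervals (red, adjusted p below 0.05), open points the values after median ratio scaling, and the dashed line the median of all genes and loci (-0.47). ARNTL, NFIL3 and BHLHE40 lie right of 0 and DBP, PER3, NR1D2 and TEF left of it under both scalings.

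A list of 19 other clock-linked genes was read in the same fit, of which 16 were in the table. In PL, 4 of the 16 were called, with 2 higher (NFIL3 and BHLHE40) and 2 lower (TEF and CSNK1D), where 30.3% of all genes and loci were called, 3.03% higher and 27.3% lower. The median log2 fold change of the list was -0.35. TEF, a D-box activator of the same family as DBP, was 9.06, 11.3 and 11.0 units in MG, 12.4, 10.9 and 12.3 units in LG and 8.37, 4.31 and 6.42 units in EL. It was 2.07, 3.47 and 2.82 units in PL and 10.9, 11.9 and 12.0 units in W2. The PL samples lay below all others, and TEF was 1.66 ± 0.19 (SE) lower in PL (limma adjusted p = 9.9e-05), or 1.16 lower after median ratio scaling. HLF, the other activator of the family, was 18.2 to 22.5 units in PL and 16.3 to 35.4 units elsewhere, and its log2 difference of -0.38, or 0.17 after median ratio scaling, did not pass the test (limma adjusted p = 0.17 with the deposited values).

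NFIL3, which represses through the D-box sites that DBP and TEF activate, went the other way. It was 6.28, 7.35 and 6.38 units in MG, 5.09, 6.41 and 5.79 units in LG and 4.78, 6.44 and 5.52 units in EL. It was 8.70, 15.2 and 17.5 units in PL and 6.01, 7.11 and 6.67 units in W2. The 3 PL samples exceeded all 12 others, as in 1.10% of all genes and loci, and the difference was 1.06 ± 0.19 (SE; limma adjusted p = 0.0017), or 1.60 after median ratio scaling.

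BHLHE40 (DEC1), a repressor that binds the E-box sites of the ARNTL and CLOCK pair, had the largest rise in PL among the clock and clock-linked genes of the table. It was 6.11, 8.63 and 11.7 units in MG, 10.7, 8.59 and 8.90 units in LG and 12.0, 12.3 and 14.3 units in EL. It was 29.7, 96.7 and 105 units in PL and 10.3, 8.23 and 9.56 units in W2. All PL samples lay above all others, and the log2 difference was 2.70 ± 0.31 (SE; limma adjusted p = 0.00010), or 6.52-fold. Its paralog BHLHE41 was 0.0255 to 2.76 units in PL and 0.669 to 8.18 units elsewhere (interval of the log2 difference -2.52 to 0.52). CSNK1D, the kinase that marks PER proteins for turnover, was 16.1 to 33.9 units in PL and 32.4 to 49.6 units elsewhere. Its log2 difference of -0.68 (limma adjusted p = 0.012) became -0.13 after median ratio scaling (adjusted p = 0.43). The call of BHLHE40 in PL was kept in all 26 alternative settings, and those of NFIL3 and TEF in all but the added limit of 2 on the absolute log2 fold change.

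**Figure D3:**
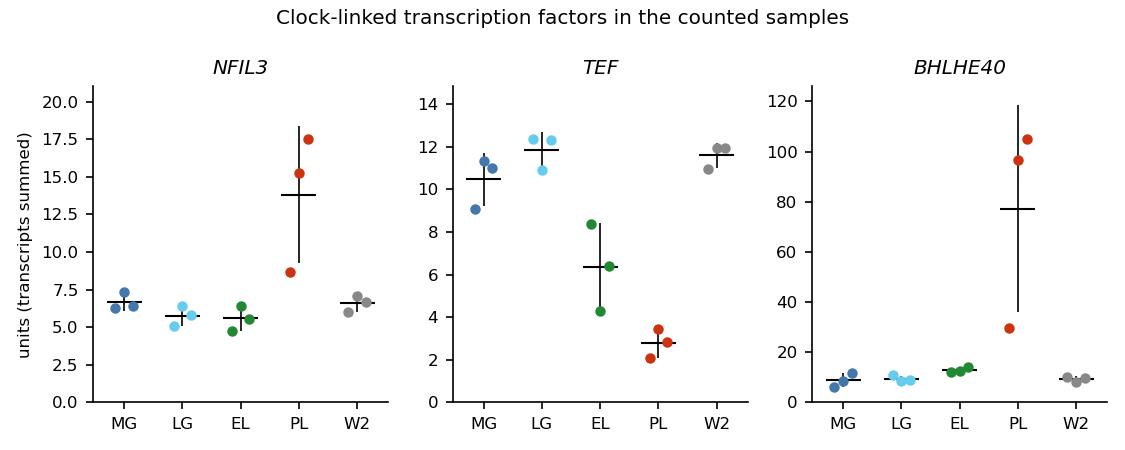
Units of NFIL3, TEF and BHLHE40 in the 3 counted samples of each stage (points), with stage means (horizontal lines) and 1 SD (vertical lines). The PL samples lie above all others for NFIL3 (8.70 to 17.5 units) and BHLHE40 (29.7 to 105 units) and below all others for TEF (2.07 to 3.47 units).

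In the 10 pairwise comparisons of stages, 11 of 100 tests of the clock genes were called, where 7.81% of all tests were, and all 11 involved PL. Against MG, 4 of the 10 genes were called in PL, 1 higher and 3 lower, where 25.2% of all genes and loci were called, 2.23% higher and 23.0% lower. ARNTL was higher by 1.15 (limma adjusted p = 0.016), and PER3, CRY2 and DBP were lower by 2.09, 1.40 and 2.36 on the log2 scale (log2 fold changes -2.09, -1.40 and -2.36, adjusted p = 0.00088, 0.020 and 0.0018). Against LG, 3 genes were lower in PL, where 14.7% of all genes and loci were called and 13.1% were called lower, with log2 fold changes of -1.75 for PER3 (limma adjusted p = 0.0037), -3.58 for NR1D2 (0.026) and -2.41 for DBP (0.0025). Against MG, the call of ARNTL was lost without MG sample 6 (0.87, adjusted p = 0.062) and that of CRY2 without MG sample 3 or 6 or PL sample 2 (adjusted p = 0.075, 0.050 and 0.056), and against LG that of NR1D2 was lost without any 1 of the LG samples or without PL sample 2 or 3 (adjusted p between 0.064 and 0.087). Median ratio scaling ended the calls of CRY2 against MG (-0.83, adjusted p = 0.098) and of NR1D2 against LG (-3.22, adjusted p = 0.065). Fits of the 2 stages alone kept 2 calls against MG, PER3 and DBP, where 1757 of all genes and loci were called. Against LG such a fit kept 0 of the calls, where 662 of all genes and loci were called. Against EL none was called in PL (limma, 4.62% of all genes and loci called), though 5 of the 10 had an unadjusted p below 0.05, as 19.0% of all did. In that comparison the log2 fold changes were 0.95 for ARNTL, -1.08 for PER3, 0.61 for CRY1, -2.14 for NR1D2 and -1.37 for DBP. After median ratio scaling 13 of the 100 pairwise tests were called, and the share of all tests under that scaling is not given. ARNTL and CRY1 were then higher in PL than in LG (1.33 and 0.93, limma adjusted p = 0.026 and 0.030) and than in EL (1.28 and 0.93, adjusted p = 0.045 and 0.043). EL lay between LG and PL in mean level for PER3 (9.24, 5.78 and 2.48 units in LG, EL and PL), NR1D2 (24.7, 10.5 and 3.45 units), DBP (10.8, 5.49 and 1.77 units) and TEF (11.9, 6.37 and 2.78 units). The median over all genes and loci had the same order, with log2 fold changes against LG of -0.22 in EL and -0.45 in PL. These medians were -0.07 and -0.06 after median ratio scaling. The share of all genes with this order was not computed.

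After weaning, 4 of the 10 genes were called in W2 against PL, all higher, where 32.8% of all genes and loci were called and 30.4% were called higher. PER3 was higher by 2.18 (limma adjusted p = 0.00051), CRY2 by 1.66 (0.0065), NR1D2 by 3.65 (0.012) and DBP by 2.39 (0.0012) on the log2 scale. After median ratio scaling, where 7.42% of all were called higher and 5.66% lower, PER3 (1.53), CRY2 (1.00) and DBP (1.78) kept their calls and NR1D2 (3.06, adjusted p = 0.061) did not. In a fit of W2 and PL alone PER3 and DBP kept their calls and CRY2 and NR1D2 did not, where 2960 of all genes and loci were called. TEF was higher in W2 than in PL by 1.90 (limma adjusted p = 0.00025), while NFIL3 (-0.96, adjusted p = 0.010) and BHLHE40 (-2.79, adjusted p = 0.00048) were lower. The PL samples are shared between these comparisons and the contrast of PL with the other stages, so the values are not independent of each other.

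The 6 comparisons without PL called none of the 10 genes (limma). In these, 0.0115% (LG vs MG), 0.0269% (EL vs MG), 0.0115% (W2 vs MG), 0.0154% (EL vs LG), 0.0346% (W2 vs LG) and 0.554% (W2 vs EL) of all genes and loci were called. At an unadjusted p below 0.05 the numbers of clock genes were 1, 4, 0, 1, 2 and 4 in the same order, where 4.43%, 15.9%, 3.09%, 6.19%, 7.57% and 25.1% of all genes and loci passed. MG, LG and EL against the mean of the other stages likewise gave 0 calls among the 10 genes (limma), with 0.0384%, 0.0346% and 0.0154% of all genes and loci called. At an unadjusted p below 0.05 they gave 4, 2 and 3 clock genes, where 14.1%, 5.12% and 8.87% of all passed.

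Ratios of 2 genes within a sample do not change when all genes of that sample are scaled together, and they are given as a description without a test. ARNTL stood at 2.82 to 15.8 times the level of DBP in the 3 PL samples and at 0.250 to 2.69 times in the 12 others. The ratio of ARNTL to PER3 was 2.29 to 8.74 in PL and 0.252 to 1.87 elsewhere, and that of NFIL3 to TEF was 4.21 to 6.23 in PL and 0.411 to 1.50 elsewhere. In none of these 3 ratios did PL overlap with the other stages. Each of them sets a gene called higher in PL over a gene called lower. Without overlap, PL lay above the other stages for 1.10% of all genes and loci and below for 11.3%. The share of all gene pairs with such a separation was not computed. The ratio of ARNTL to NR1D2 (1.81 to 28.0 in PL, 0.114 to 2.11 elsewhere) and that of CRY1 to CRY2 (1.38 to 6.17 in PL, 0.888 to 2.67 elsewhere) did overlap.

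**Figure D4:**
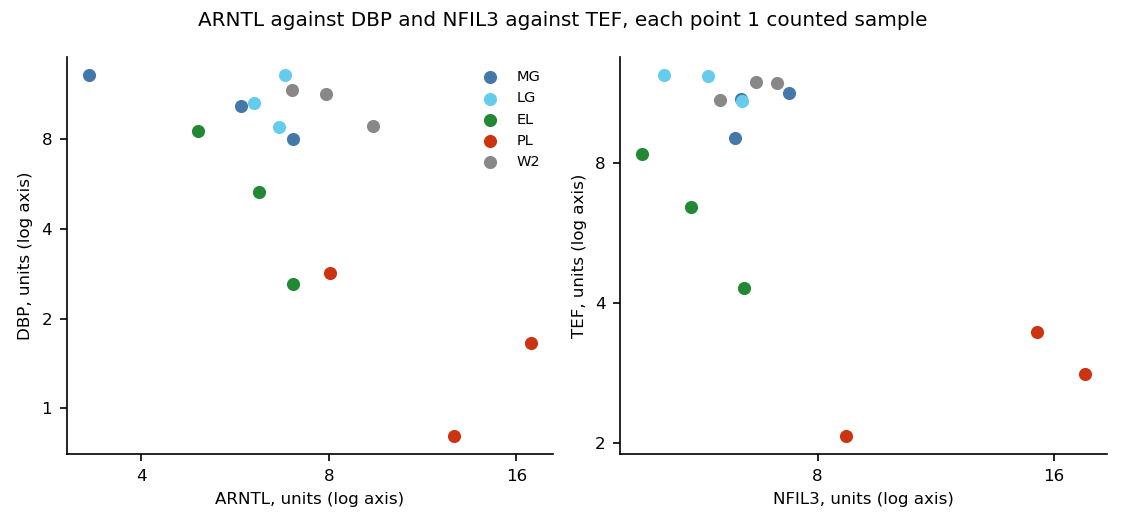
Units of ARNTL against DBP (left) and of NFIL3 against TEF (right) in the 15 counted samples, on log axes, coloured by stage. The 3 PL samples lie at the lower right in both panels, with ARNTL at 2.82 to 15.8 times DBP and NFIL3 at 4.21 to 6.23 times TEF.

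Over the 15 samples, ARNTL was negatively correlated with DBP (Pearson r = -0.70, permutation p = 0.0034, adjusted over 9 relations 0.031; Spearman rho = -0.56, permutation p = 0.033, adjusted 0.27). The same held for PER3 (Pearson r = -0.66, permutation p = 0.0080, adjusted 0.036; rho = -0.50, permutation p = 0.061). Among the other 7 clock genes r ranged from -0.55 (NR1D1) to 0.34 (CRY1), and none passed an adjusted permutation p below 0.05 with the deposited values. With median ratio scaling r was -0.90 for DBP, -0.89 for PER3 and 0.62 for CRY1. Each of them then passed (adjusted permutation p = 4.5e-05, 4.5e-05 and 0.041). For CRY1 rho under that scaling was 0.40 (adjusted permutation p = 0.21). Without PL sample 6 and MG sample 6, the samples farthest from the median of ARNTL, r was -0.62 for DBP and -0.54 for PER3, and neither passed (adjusted permutation p = 0.19 for both). Without the 3 PL samples, a subset chosen after the data were seen, r was -0.22 for DBP and -0.10 for PER3 in the remaining 12 samples. Leaving out MG sample 6, PL sample 2 or PL sample 6 alone ended both calls (adjusted permutation p between 0.067 and 0.21), and leaving out MG sample 3 ended that of PER3 (0.056). With values centred within stages and permuted within them, r was -0.64 for DBP and -0.58 for PER3 (adjusted permutation p = 0.14 and 0.18). For NR1D1 it was -0.71 (adjusted permutation p = 0.14).

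The genes most like ARNTL over the 15 samples, by Pearson r on the log2 scale among 8154 annotated genes with a mean of at least 5 units, were NEDD9 (r = 0.81), FOXO3 (0.80), ORAI1 (0.77), EEF2K (0.77) and SPP1 (0.77). NFIL3 was at rank 36. Outside the clock genes, the genes most like DBP were TM4SF1 (r = 0.99), TEF (0.98), HES1 (0.98), CUX1 (0.98) and FXYD6 (0.98). The clock genes described here were left out of both rankings. Neither ranking therefore shows where PER3 or another clock gene would stand. Each of these correlations includes the 3 PL samples, and samples share the scaling of their total.

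The sums of DBP, PER3 and CRY2 each hid transcripts that differed in level. In the fit over all 61773 transcripts, 3 of the 31 clock gene transcripts were called in PL against the other stages, where 6.85% of all transcripts were. The main DBP transcript XM_003127286.6, with 80.3% of the units of the gene, was 0.426, 1.34 and 0.588 units in PL and 2.34 to 10.7 units in the other samples, a log2 difference of -2.65 (limma adjusted p = 0.00045). The other DBP transcript, XM_013998600.2, was 0.380 to 1.50 units in PL and 0.268 to 2.65 units elsewhere, with a difference of -0.55 that did not pass the test (adjusted p = 0.42).

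For PER3 the main transcript XM_021095272.1 (66.4% of the gene) was listed at 0 in PL sample 2 and stood at 1.39 and 0.923 units in PL samples 3 and 6, against 2.94 to 13.9 units elsewhere. Its log2 difference was -2.59 (limma adjusted p = 0.0016). The 2 minor transcripts XM_021095271.1 and XM_021095273.1 differed by -0.55 and -0.08 and did not pass the test (adjusted p = 0.68 and 0.86). The third called transcript was the only one of NR1D2 in the table, XM_021071423.1 (limma adjusted p = 0.029). Across the 5 stages 3 of the 31 transcripts were called by the F test (2.60% of all transcripts), namely those main transcripts of DBP and PER3 and CRY1 XM_003126079.5 (adjusted p = 0.041). The latter stood at 6.85 to 11.4 units in W2, 4.97 to 7.55 units in MG, 2.73 to 5.49 units in PL, 3.10 to 3.52 units in EL and 1.88 to 2.14 units in LG, so that W2 and MG overlapped.

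None of the 7 ARNTL transcripts was called alone in PL. The largest difference was 1.08 for XM_021076205.1, at 1.35, 1.78 and 3.60 units in PL and 0 to 1.34 units elsewhere (limma adjusted p = 0.094), and 6 of the 7 had a difference above 0. CRY2 showed a switch between transcripts from sample to sample. XM_021083144.1, with 72.9% of the units of the gene, was listed at 0 in EL samples 3 and 4 and in PL samples 2 and 6, in which XM_021083145.1 carried nearly the whole sum (4.48, 2.25, 1.46 and 3.84 units). In W2 the first transcript held at least 9.72 units in each sample and the second 0.709, 0.346 and 0.591 units.

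PER2 was divided in the same way. The PER2 transcripts XM_021074887.1 and XM_021074891.1 were listed at 0 in 7 and 3 of the 15 samples, and in each sample 1 of them carried nearly all units of the gene. In W2 the second held 0.150, 7.10 and 6.42 units. Of the 5 PER1 transcripts, XM_005657040.3 and XM_005657041.3 held 45.1% and 46.6% of the units. Both were present in most samples, as in MG sample 1 with 12.0 and 9.80 units, but PL sample 6 had 28.5 units of the first and 0 of the second. How reads common to such transcripts were shared out by the quantification was not tested, and the gene sums are the values used above.

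**Figure D5:**
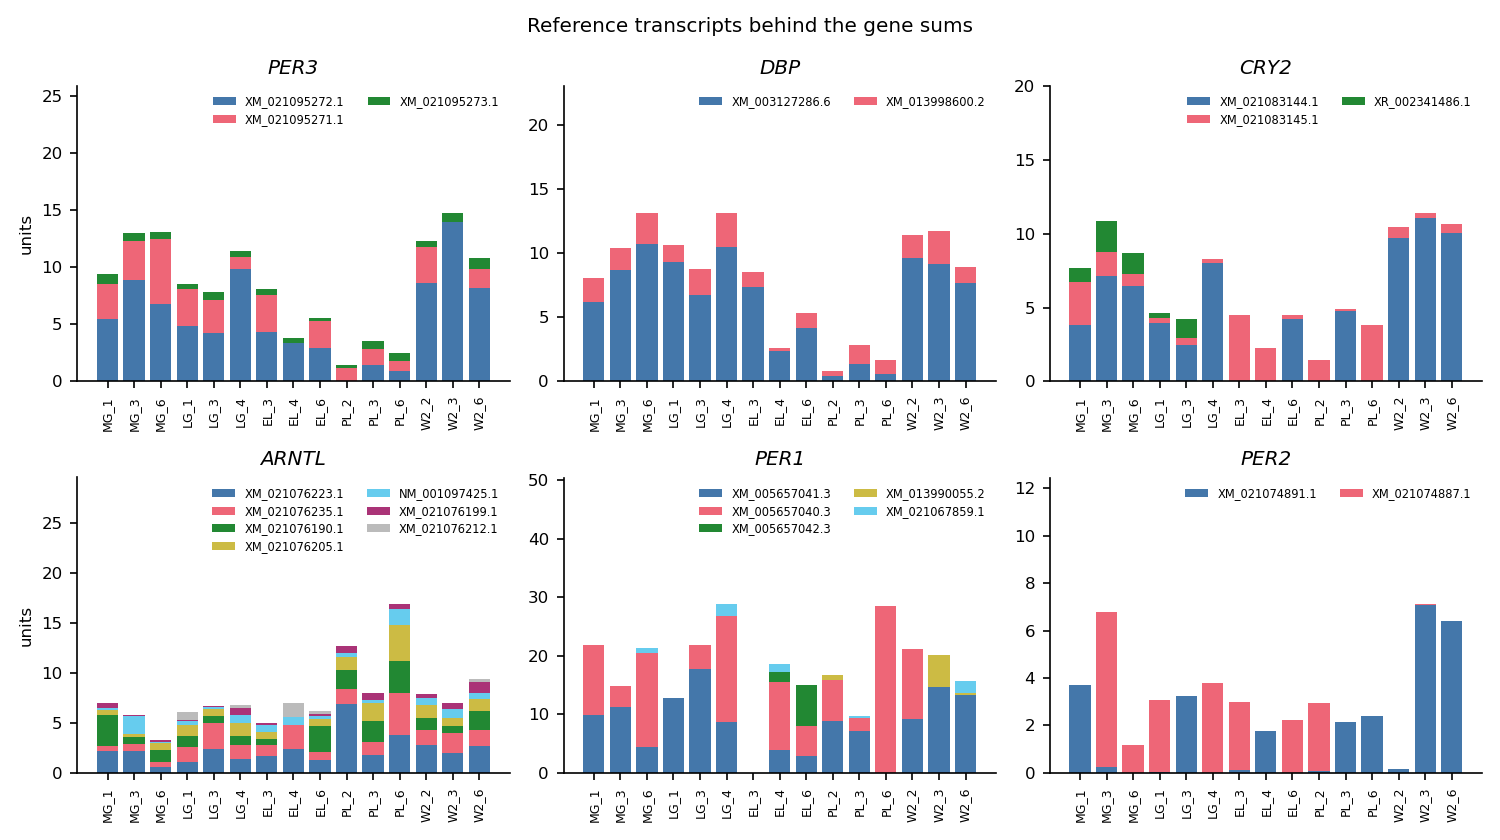
Units of each reference transcript of PER3, DBP, CRY2, ARNTL, PER1 and PER2 in the 15 counted samples, stacked to the gene sum. The main transcripts of PER3 and DBP (blue) fall to 0 to 1.39 and 0.426 to 1.34 units in PL, while in CRY2, PER1 and PER2 the leading transcript changes from sample to sample within a stage.

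Markers of the cell types in the gland also differed in PL, where 3.03% of all genes and loci were called higher and 27.3% lower. In bulk tissue, fewer cells of a type and less RNA per cell cannot be told apart. Of the fibroblast markers 4 of 6 were lower in PL (COL3A1, DCN, LUM and PDGFRA; limma), and their sum was 472 to 1087 units in PL and 853 to 2632 units elsewhere. Of the leukocyte markers 3 of 5 were lower (CD163, CD3E and CSF1R), with sums of 12.8 to 22.7 units in PL and 15.9 to 64.3 units elsewhere. The leukocyte markers PTPRC and CD79A were not called, with log2 differences of 1.24 (interval -1.31 to 3.80) and -0.29. Of 4 adipocyte markers FABP4 was lower and LEP higher, while CIDEC and PNPLA2 were not called (log2 differences 0.41 and 0.33). The adipocyte sums (268 to 412 units in PL, 455 to 747 units elsewhere) were mostly FABP4 (234 to 370 and 441 to 730 units). Of 4 endothelial markers KDR was lower (sums 72.9 to 107 units in PL and 95.4 to 172 units elsewhere). Of the luminal epithelial markers 1 of 6 was lower (CDH1; 837 to 1766 and 1315 to 1992 units), and of the myoepithelial markers none of 5 was called at an adjusted or an unadjusted p below 0.05 (773 to 1952 and 866 to 1674 units). Of the milk protein genes 5 of 6 were higher (sums 91237 to 285004 and 5781 to 120785 units). After median ratio scaling COL3A1, LUM, CSF1R and KDR were still called lower in PL, whereas DCN, PDGFRA, CD163, CD3E, FABP4 and CDH1 were not called. LEP and the same 5 milk protein genes were still called higher. Of the 5 myoepithelial markers 3 (KRT5, ACTA2 and OXTR, with log2 differences of 1.43, 0.54 and 0.93 and limma adjusted p = 0.014, 0.0038 and 0.0037), EPCAM (0.60, adjusted p = 0.019) and PNPLA2 (0.87, adjusted p = 0.045) were then called higher. No marker in the table was at 0 in every sample of a stage. The part of the cell mixture in the changes of the clock genes was not tested.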

How the data were processed

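Total RNA of 30 mammary samples was sequenced, and 1 deposited table of 61773 transcripts was used. Per the submitters' processing notes and the study's methods, reads were checked with FastQC, trimmed with Trimmomatic, aligned to Sscrofa11.1 with HISAT2 and quantified with StringTie. A floor of 0.5 FPKM in 1 or more stages was set by the authors. Whether the deposited FPKM values include the correction for unwanted variation that the study names is not stated.

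Here 32396 transcripts were matched by accession and 292 by gene name to RefSeq genes, and 29047 (47.0%, holding 14.6% to 21.8% of the units) were assembled without a reference name and kept as 11061 loci. Transcript values were summed per gene. The members and gene lists were chosen with earlier results of these data known. Named genes were all members and their transcripts, and of the other lists a few fixed clock genes and those called. A gene of the clock-linked list is not reported here. HLF, BHLHE41 and the uncalled genes given by range were named after their values were seen.

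The 15 counted samples were analysed as log2(units + 0.5), a scale that understates changes of low genes, with limma 3.58.1 (R 4.3.3), trended variance, the 5 stages in 1 fit, and Benjamini-Hochberg adjustment over 26012 genes and loci in each comparison. A call is an adjusted p below 0.05. Correlations used 100000 permutations in scipy 1.17.1. Procedures were tested on simulated data with changes planted in PL. The contrast with the other 4 stages recovered 20 of 50 planted log2 changes of 1 and 36 of 50 of 2, and called 6 unchanged genes or loci. A gene that was not called may therefore still differ. Alternatives were other pseudocounts, a filter at a mean of 1 unit, 2 other normalizations, no variance trend, the replicate number as a block, other choices of samples, the study's added log2 fold change limit of 2, and single transcripts. No batch is named in the sources used here, so within-batch values were not computed. With 3 against 3 samples an exact permutation test cannot go below p = 0.10.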

Additional observations from a re-analysis of the deposited data

How the results depend on the processing

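PL calls of DBP and BHLHE40 passed in all 26 alternatives, and those of PER3, NFIL3 and TEF in all but the added fold change limit. The numbers of clock genes called in the F test (4), in PL against the other stages (5), in pairwise comparisons (11 of 100) and in correlations with ARNTL (2) varied more. With each sample left out in turn they were 2 to 5, 2 to 5, 9 to 17 and 0 to 2, with the lowest F count without W2 sample 3, the lowest PL count without PL sample 2 and the highest pairwise count without PL sample 3. The correlation count was 1 without MG sample 3 and 0 without MG sample 6, PL sample 2 or PL sample 6.

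Replicate numbers did not pair the samples (residual correlation of same-numbered samples -0.12 to 0.14), and with the replicate block the counts were 2, 3 and 7. All 6 samples per stage gave 7 in the F test and 47 in pairwise comparisons, and the near-identical samples averaged gave 28 pairwise. Both settings, which are among the alternatives, use samples that nearly repeat the mean of the counted ones. They therefore add no independent replicates, and higher counts there are no added evidence. The shares of all genes and loci called in these settings, and in the other alternative fits counted here, are not given. A change in these counts is therefore not a result about the clock genes alone. The added fold change limit gave 2 in PL and 7 pairwise, the highest transcript of each gene 3 and 7, and fits of the 2 stages alone 4 pairwise. Correlation calls were 0 when centred within stages, without the 2 farthest samples and without the 3 PL samples, and 3 after median ratio scaling.

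Differences near 0 changed sign. In PL, quantile normalization gave 0.31 for PER2, 0.19 for RORA and 0.093 for HLF. Median ratio scaling gave 0.30, 0.17 and 0.17 for these, and the replicate block 0.26 for PER2. Leaving out 1 sample gave -0.15 (EL 3) to 0.65 for PER1, and -0.099 for PL 6, -0.28 (PL 3) to 0.92 for NPAS2, and -0.11 for PL 6, and -0.025 (PL 6) to 0.26 for CRY1. The highest transcript gave -1.13 for PER1, 0.29 for PER2, -0.10 for CRY1, -0.63 for NPAS2 and 0.0084 for HLF. The correlation of ARNTL with CLOCK was -0.28 centred within stages, -0.030 (PL 6) to 0.32 with 1 sample left out and -0.13 without the PL samples. With NR1D2 it was 0.35 centred and 0.23 without PL, with CRY2 0.11 without PL, and with PER2 -0.10 without the 2 farthest samples and -0.13 without MG 6. The cause was not tested. CLOCK, below a mean of 1 unit, has no value under that filter. The limits are 3 counted samples per stage, read counts not used here, and 47.0% of transcripts without a gene name.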

Other observations

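A list of 12 genes that respond to glucocorticoids or are immediate early genes, of which 11 were in the table, was read beside the clock genes, since PER1 is also known to be induced by glucocorticoids. In PL against the other 4 stages 6 of the 11 were called (limma), with 5 higher and 1 lower, where 30.3% of all genes and loci were called, 3.03% higher and 27.3% lower. The median log2 fold change of the list was 0.45 against -0.47 over all genes and loci. After median ratio scaling these medians were 1.01 and -0.07, and 6 of the 11 were called higher, where 7.41% of all were. FOS, a subunit of the AP-1 factor, was 6.85, 16.2 and 25.4 units in PL and 0.986 to 6.37 units elsewhere, so that PL lay above all other samples. Its log2 difference was 2.10 ± 0.42 (SE; limma adjusted p = 0.0033), and the call was kept in all 26 alternative settings.

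ZBTB16, a zinc finger factor induced by glucocorticoids, was 5.39, 4.86 and 7.30 units in PL and 0.991 to 4.52 units elsewhere (log2 difference 1.15, limma adjusted p = 0.023). TSC22D3 (GILZ), another glucocorticoid target, was 24.0, 13.8 and 24.6 units in PL and 9.46 to 15.9 units elsewhere (0.71, adjusted p = 0.013). The calls of both were lost without PL sample 2 (adjusted p = 0.063 and 0.062) and without PL sample 6 (0.090 and 0.059). KLF9 (0.77, limma adjusted p = 0.041) and ATF3 (0.53, 0.047) were also higher in PL, and leaving out a single sample ended 1 or both of these calls for every sample except MG sample 6. NR3C1, the glucocorticoid receptor, was 8.85 to 12.3 units in PL and 13.9 to 22.0 units elsewhere, with a log2 difference of -0.64 (limma adjusted p = 0.0084) that became -0.09 after median ratio scaling (adjusted p = 0.58). PER1, described above, did not differ beyond its spread, and FKBP5 was 0.0723 to 16.3 units in PL and 1.96 to 10.7 units elsewhere. The other genes of the list were not called with the deposited values, and PL overlapped with the other stages. SGK1 was 17.9 to 28.9 units in PL and 17.0 to 40.3 units elsewhere, and DUSP1 19.1 to 33.2 and 11.8 to 48.0 units. JUN was 22.7 to 65.7 and 16.1 to 45.7 units, and EGR1 7.63 to 26.1 and 4.74 to 39.8 units.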
